A study of Mus musculus with 16 samples.

Results

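The genes described here were high in every iHAC1-iPS clone and lower in mouse embryonic fibroblasts (MEFs), embryonic stem (ES) cells and iHAC-free iPS lines. Levels are log2 signals of a 1-colour Agilent whole mouse genome array, each scaled to its own 75th percentile, with 1 probe per gene. The score of a gene is its lowest value among the 4 iHAC1-iPS clones minus its highest value among 7 arrays, here called the reference arrays, which are MEF, the ES lines B6ES and TT2, and the 4 iHAC-free iPS lines. Members were chosen by this score, as the 150 genes with the largest values, of 15733 genes well above background on all 4 iHAC1-iPS arrays and 28095 named genes on the array. Their scores ran from 6.96 for Hbb-bh1 to 0.776 for Syne2, with a median of 1.18, while the median of all 15733 genes was -0.73. The first gene left out, Fbxl21, scored 0.775, so the list ends within a continuous range. These values chose the members and are given as a description with no test. The highest reference array was MEF for 50 members, and without the MEF array only 69 of the 150 genes stayed in a list of this length.

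The samples were cultured cell lines and clones, 1 array each, on a C57BL/6 background except where stated. MEF came from C57BL/6 embryos, B6ES from C57BL/6 mice and TT2 from C57BL/6 x CBA F1 mice. Clones 1-A3, 1-B, 1-C3 and 1-D6 (iHAC1-iPS) carried iHAC1, a human artificial chromosome with duplicated CAG-driven cDNAs for Oct4, Sox2, Klf4 and c-Myc, and all came from a single transfer experiment. Clones 2-B1, 2-C6, 2-E and 2-N (iHAC2-iPS) carried iHAC2, which holds the iHAC1 cassettes, a p53 knockdown (KD) construct and further copies of Oct4. For each iHAC2-iPS clone, 1 iHAC-free iPS line derived from it by loss of the vector was on an array, isolated as cells without the EGFP that the vectors carry. F-B1 came from 2-B1, F-C5 from 2-C6, F-E4 from 2-E and F-N7 from 2-N. The retroviral line 20D17 (C57BL/6 x DBA) had no replicate and, like the iHAC2-iPS clones, took no part in the choice of the genes. Slides 1 and 2 held the MEF, ES, 20D17 and iHAC1-iPS arrays and were read in the first scan session. Slides 3 and 4 were read in the second and each held 2 iHAC2-iPS clones with the 2 lines derived from them. Comparisons of iHAC2-iPS cells with iHAC1-iPS or ES cells therefore cannot be told apart from scan session. The share of spots well above background ran from 54.2% to 65.8% over the arrays, with no saturated spot.

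Reprogramming turns a fibroblast into a pluripotent cell through forced expression of a few transcription factors. In a fully reprogrammed cell the fibroblast genes are silenced and the cell's own pluripotency genes take over from the transgenes. Patterning factors of the nervous system and embryonic globins are best known from particular differentiated cells. The labels were checked with 18 pluripotency markers, whose median level was 3.02 and 3.12 in the ES lines, between 2.72 and 2.96 in the iHAC-free iPS lines and 2.46 in 20D17. It lay between -2.05 and -0.0419 in the iHAC1-iPS clones, between the ES lines and MEF, which was at -4.54. In iHAC2-iPS cells it was 1.52 in 2-B1, 1.32 in 2-C6, 1.35 in 2-E and 2.96 in 2-N. All 22 fibroblast markers were well above background on all arrays, and their median was 3.22 in MEF, 2.16 to 3.19 in iHAC1-iPS clones, 0.842 to 2.05 in iHAC2-iPS clones and 0.457 to 1.82 in the ES lines. The part of these markers in the results below was not tested, and in bulk RNA fewer cells of a type and less RNA per cell cannot be told apart. None of the 22 fibroblast and 18 pluripotency markers was a member of the list. The rule largely fixed this, as it asked for levels above MEF and the ES lines. Only 12 of the pluripotency markers were well above background on all iHAC1-iPS arrays. Pou5f1 (Oct4), which was a member, was kept in a separate list of reprogramming factors.

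The gene with the largest score, Hbb-bh1, encodes an embryonic beta-like globin and is read by 2 probes that overlap by 40 of their 60 bases, on the minus strand of chromosome 7 in mm9. They are shown because the shared bases are the same and the readings are not, with the bases that only 1 probe covers in capitals.
A_51_P179672, chr7:110990307-110990366: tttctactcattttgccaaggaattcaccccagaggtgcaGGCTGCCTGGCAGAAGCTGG
A_52_P305876, chr7:110990327-110990386: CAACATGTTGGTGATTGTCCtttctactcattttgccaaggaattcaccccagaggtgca
The first probe read 1.89, 1.62, 1.495 and 2.19 in 1-A3, 1-B, 1-C3 and 1-D6, and -0.28, 1.70, 0.34 and -0.62 in 2-B1, 2-C6, 2-E and 2-N. It read -2.39 in 20D17 and was not well above background on any of the 7 reference arrays. The mean of iHAC1-iPS cells was at least 176-fold above that of ES cells and at least 139-fold above that of iHAC-free iPS cells, where the dim arrays were set to their lowest signal well above background. The second probe was well above background on 0 of the 8 arrays of cells that carried an iHAC vector, and on 1 of the 16 arrays, 20D17.
CAG expression cassettes of this kind commonly end in polyadenylation sequence of the rabbit beta-globin gene. The last 15 bases of the first probe were set against the reverse complement of the reverse primer that the study placed in the polyadenylation part of its cassettes. Of these 15 bases, 12 were equal. The length of 15 was chosen as the best match of this probe, and all 41174 probes were scored at that length only. No other probe reached 12 at its end, which this choice favoured, so the rank is no test. Whether RNA of the vectors contributed to the reading was not tested.

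The reprogramming factors themselves supplied 2 of their 4 genes to the list, Myc and Pou5f1 (which encodes Oct4). The array cannot tell transcripts of the vector from those of the cell's own gene where a probe lies in the cDNA. Myc, a transcription factor of cell growth, was read by 3 probes on chromosome 15. The member probe (chr15:61821417-61821476) read 6.58, 5.80, 5.84 and 6.53 in the iHAC1-iPS clones and 3.67, 5.60, 3.52 and 3.93 in 2-B1, 2-C6, 2-E and 2-N. On this probe MEF and the ES lines lay between 1.33 and 1.53 and the iHAC-free iPS lines between -0.38 and 0.26. Both iHAC groups were therefore above all 7 reference arrays, and 2-C6 was nearest to the iHAC1-iPS range. A probe upstream of it (chr15:61820925-61820984) behaved alike, with means of 4.09 ± 0.512 (SD, n = 4) in iHAC1-iPS cells, 1.90 ± 1.06 (SD, n = 4) in iHAC2-iPS cells and -2.69 ± 0.293 (SD, n = 4) in iHAC-free iPS cells. The third probe, which lies farthest downstream (chr15:61821516-61821576), ran the other way, at -0.53 ± 0.642 (SD, n = 4) in iHAC1-iPS cells against 2.42 and 2.33 in B6ES and TT2.
Pou5f1 read 6.65, 6.57, 6.32 and 6.67 in the iHAC1-iPS clones, 4.47, 6.41, 4.94 and 3.89 in 2-B1, 2-C6, 2-E and 2-N, and 3.56 and 4.00 in the ES lines. The iHAC-free iPS lines were at 2.42 to 2.77, below both ES lines, and MEF was not well above background. For Pou5f1, unlike Myc, clone 2-C6 lay in the iHAC1-iPS range, while 2-N overlapped the ES lines. Klf4 and Sox2, whose cDNAs are on the same cassettes, were read by 1 probe each and were no members. Klf4 was 2.09 to 2.90 in iHAC1-iPS clones and 5.04 and 5.76 in the ES lines. Sox2 was 0.62 to 1.56 in iHAC1-iPS clones and 3.73 and 3.36 in the ES lines. By qRT-PCR the paper found that transgenic expression of all these factors exceeded the endogenous expression in iHAC1-iPS cells. Whether the Klf4 and Sox2 probes lie in the cDNAs on the cassettes was not tested.

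**Figure D1:**
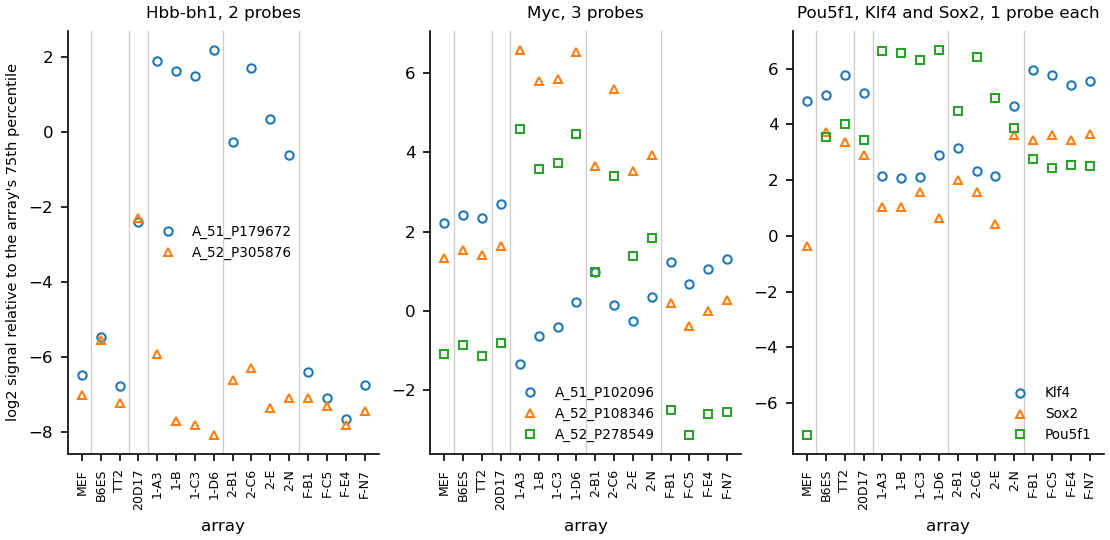
Level of each probe (vertical axis, log2 signal relative to the array's 75th percentile) on each of the 16 arrays (horizontal axis, with grey lines between groups), for the 2 probes of Hbb-bh1, the 3 of Myc and the single probes of Pou5f1, Klf4 and Sox2. One probe of Hbb-bh1 and a pair of Myc probes stood high on the 8 arrays of cells that carried an iHAC vector, while the remaining probe of either gene did not.

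Genes of neural progenitors and neural crest formed the largest group of a written list among the members. Of the 28 in that list well above background in all iHAC1-iPS clones, 4 were members, against 150 of all 15733 such genes. The 4 were transcription factors: Foxd1, a forkhead factor of retina and kidney stroma, En2, a homeobox factor of the midbrain and hindbrain, Pax6, a factor of eye and forebrain, and Tfap2a, a factor of neural crest. Vax2, a homeobox factor of the ventral eye, was not in that list but had the second largest score. The list was written with earlier results known, and Foxd1 in particular had been seen.
Foxd1 read 4.58, 2.34, 4.16 and 4.99 in 1-A3, 1-B, 1-C3 and 1-D6. In the iHAC2-iPS clones it read -3.56 in 2-B1, 1.66 in 2-C6, -3.77 in 2-E and -3.96 in 2-N. MEF was at 0.84, and the ES and iHAC-free iPS arrays lay between -4.00 and -3.55. So 2-C6 was above MEF and 37.1-fold above the next iHAC2-iPS clone, but below the lowest iHAC1-iPS clone, and the other iHAC2-iPS clones lay with the ES lines. A second probe of Foxd1 separated the iHAC1-iPS clones from the reference arrays as well, with means of 3.51 ± 1.21 (SD, n = 4) in iHAC1-iPS cells, -3.41 ± 2.99 (SD, n = 4) in iHAC2-iPS cells and -4.55 ± 0.286 (SD, n = 4) in iHAC-free iPS cells.
Vax2 read 2.87, 2.65, 2.44 and 2.83 in the iHAC1-iPS clones and -3.12, 1.42, -4.53 and -0.08 in 2-B1, 2-C6, 2-E and 2-N. The reference arrays lay between -3.73 and -2.52. Here both 2-C6 and 2-N were above the reference arrays, and 2-B1 and 2-E were not.
En2, at 1.40 to 3.32 in the iHAC1-iPS clones, reached only -0.64 in 2-C6 and lay between -3.96 and -1.75 in the other clones. Pax6 was at -2.24 to -1.60 in the iHAC1-iPS clones, at -4.39 in 2-C6 and not well above background in the remaining iHAC2-iPS clones, so no iHAC2-iPS clone was above its reference arrays. An unnamed transcript 1686 bases from the Pax6 probe, ENSMUST00000111083, was also a member. It was at -0.28 to 0.32 in iHAC1-iPS clones, -2.48 in 2-C6 and not well above background in the other iHAC2-iPS clones. Whether both probes read the same gene was not tested, so they may not be separate members. Tfap2a was at -1.51 to -0.75 in the iHAC1-iPS clones and -1.88 in 2-C6, against -2.30 in MEF, its highest reference array.
Further factors of development were members but fall outside the rule for named genes and were chosen after their values were seen. Of these, Sall3, Irx2 and Six5 were above all reference arrays in 2-C6 alone among the iHAC2-iPS clones, Rfx4 in 2-C6 and 2-N, and Prox1 in none. Ikzf1 and Foxb1 were not well above background in any iHAC2-iPS clone.

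Among members that encode membrane proteins and transporters, Cd59a encodes a membrane-anchored inhibitor of complement, and read 2.33, 2.88, 2.78 and 1.89 in the iHAC1-iPS clones. It read 2.44 in 2-B1, 2.52 in 2-C6, 2.77 in 2-E and -1.53 in 2-N, against -2.88 to -1.53 on the reference arrays. In this gene 3 iHAC2-iPS clones lay within the iHAC1-iPS range, and 2-N lay at the top of the reference arrays. A second probe of Cd59a also separated iHAC1-iPS clones from the reference arrays.
Slc38a5, a glutamine transporter, read 3.13, 7.43, 5.08 and 3.90 in the iHAC1-iPS clones, a spread that reached 4.30 and was the widest of all members. It read 1.65, 4.05, 1.37 and 1.51 in 2-B1, 2-C6, 2-E and 2-N and between -4.88 and -0.004 on the reference arrays. All 4 iHAC2-iPS clones were above the reference arrays, and 2-C6 alone was in the iHAC1-iPS range.
Fcgr2b, the inhibitory Fc receptor for IgG, was likewise in the iHAC1-iPS range in 2-C6 alone, with -0.71 to 0.71 in iHAC1-iPS clones, -0.30 in 2-C6, and -3.79, -3.36 and -1.81 in 2-B1, 2-E and 2-N. Its reference arrays reached -4.25. Slc5a9, a sodium-dependent sugar transporter, was at -4.01 to -2.39 in iHAC1-iPS clones and -3.30 in 2-C6, and was not well above background on any other iHAC2-iPS or reference array.
Pllp, a proteolipid of myelin and epithelial membranes, was at -0.54 to 1.87 in iHAC1-iPS clones and between -3.25 and -1.98 in all 4 iHAC2-iPS clones, above its reference arrays. Of its other probes, 1 separated iHAC1-iPS clones from the reference arrays and 1, well above background on 2 iHAC1-iPS arrays, did not. Shisa3, which restrains Wnt and FGF signalling, read 1.73 to 2.19 in iHAC1-iPS clones and -1.29, 1.46 and -2.36 in 2-B1, 2-C6 and 2-E. In 2-N it was not well above background, and the reference arrays reached -1.24.
Ly6g6f, a Ly6 family gene, was not well above background on any of the 7 reference arrays. It read -1.40, -2.29, -1.92 and -0.93 in the iHAC1-iPS clones. Among the iHAC2-iPS clones only 2-C6, at -1.67, was well above background. For Ly6g6f 2-C6 was at least 8.46-fold above the mean of the others, where those arrays were set to their lowest signal well above background. Its neighbour Ly6g6d, 9297 bases away by probe position, was also a member, at 0.29 to 1.41 in iHAC1-iPS clones and 0.65 in 2-C6.

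Several members of other functions were high in 2-C6 and in no other iHAC2-iPS clone. Avil encodes advillin, an actin-binding protein of sensory neurons, and read 0.51, -1.51, -1.12 and 0.31 in the iHAC1-iPS clones. It read -1.70 in 2-C6 and was not well above background in 2-B1, 2-E and 2-N, nor in the ES and iHAC-free iPS lines. MEF was at -4.68. By the same kind of bound 2-C6 was at least 8.30-fold above the mean of the other iHAC2-iPS clones, and it lay just under the lowest iHAC1-iPS clone.
Saxo1, listed on the array as Fam154a, encodes a protein of axonemal microtubules. It read -3.43, -0.76, -1.52 and -2.29 in the iHAC1-iPS clones and 0.36 in 2-C6, above all of them. No other iHAC2-iPS or reference array was well above background. The RIKEN gene 4930550L24Rik also had 2-C6 above all iHAC1-iPS clones, at 0.57 against -2.61, -1.25, -1.12 and -1.53. For this gene too, no other iHAC2-iPS or reference array was well above background. By such bounds 2-C6 exceeded the mean of its sister clones at least 34.6-fold for Saxo1 and at least 40.0-fold for 4930550L24Rik. A second, adjoining probe of 4930550L24Rik separated the iHAC1-iPS clones in the same way.
Lrmp, a membrane protein of lymphoid cells, read 2.53, 6.20, 3.62 and 3.58 in iHAC1-iPS clones and 5.14 in 2-C6, against -1.90, -1.001 and -0.54 in 2-B1, 2-E and 2-N. Nat8l, the enzyme that makes N-acetylaspartate, was at 4.28 to 5.02 in iHAC1-iPS clones and 3.99 in 2-C6, and at 0.03, -0.59 and -1.28 in 2-B1, 2-E and 2-N. For both genes the other iHAC2-iPS clones lay within or below the range of the reference arrays, and 2-C6 exceeded the next clone 51.3-fold for Lrmp and 15.6-fold for Nat8l.
Drp2, a dystrophin-related protein, Adam32, a disintegrin-family protein of testis, and the transcript AK036971 were likewise well above background in 2-C6 and in no other iHAC2-iPS clone. The desmosomal plakophilin Pkp1 was higher in 2-C6, at -0.60, than in any iHAC1-iPS clone, of which the highest was -1.47, and it was above background in all 4 iHAC2-iPS clones.

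**Figure D2:**
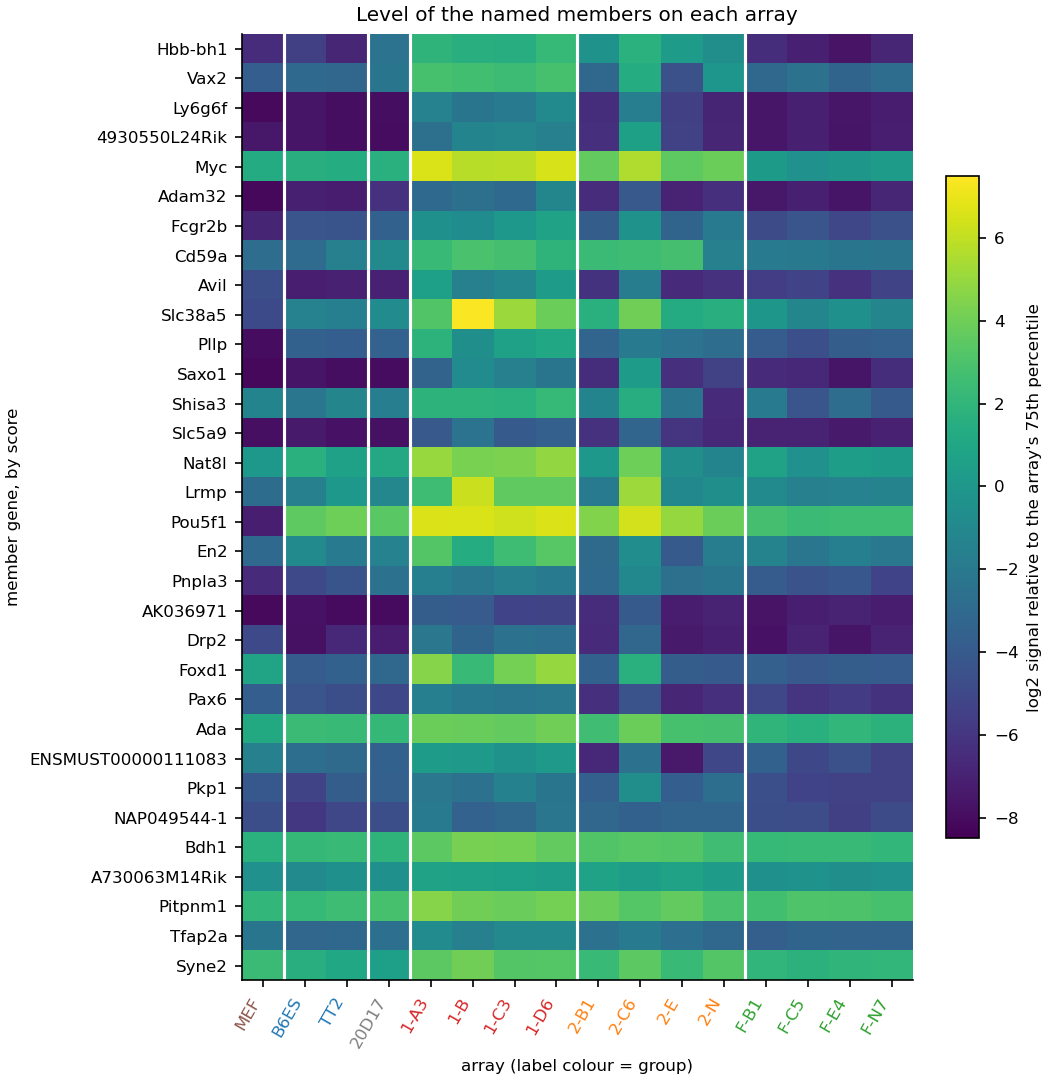
Level of the 32 named members (rows, ordered by score) on each array (columns, label colours mark the groups and white lines divide them), as log2 signal relative to the array's 75th percentile. Within the rows of Ly6g6f, Avil, Saxo1, Lrmp and Nat8l, 2-C6 is nearer to the 4 iHAC1-iPS clones than 2-B1, 2-E and 2-N are.

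Over the whole list, 2-C6 stood apart from its sister clones. This clone had been singled out in an earlier look at these data, so the counts that follow describe it. The rule chose members by their highest reference and lowest iHAC1-iPS values. Shares of all genes against these limits are therefore not like for like with the members, and are given as a description. Of the 150 members, 88.7% were well above background in 2-C6, 69.3% in 2-B1, 74.7% in 2-E, 71.3% in 2-N and 80.7% in 20D17. Over all 15733 genes the shares were 94.2%, 91.7%, 95.9%, 92.4% and 98.7%. The value in 2-C6 was above all 7 reference arrays for 112 members, against 65 in 2-B1, 63 in 2-E, 51 in 2-N and 26 in 20D17. Across all 15733 genes 2-C6 had the lowest such share of the iHAC2-iPS clones, 14.7%, against 21.8% in 2-B1, 23.9% in 2-E and 23.3% in 2-N. In 20D17 the share was 7.60%. Under normexp background correction the count of members was 100 for 2-B1 and 108 for 2-C6.
The value reached at least the lowest iHAC1-iPS clone for 45 members in 2-C6, 8 in 2-B1, 10 in 2-E, 4 in 2-N and 0 in 20D17. Over all 15733 genes this share was 63.3%, 63.0%, 61.4%, 58.7% and 63.7% in the same order. For 37 of them 2-C6 was the only iHAC2-iPS clone to do so, and for 100 members no iHAC2-iPS clone did. The median member was 0.984 below the iHAC1-iPS mean in 2-C6, 1.95 below in 2-B1, 1.97 below in 2-E and 2.49 below in 2-N on the log2 scale. In 2-C6, 67 members lay between the reference arrays and the iHAC1-iPS clones, and 38 were not above the reference arrays.
Clone 2-C6 was the highest of the 4 iHAC2-iPS clones for 101 of the 150 members, where 27.1% of all 15733 genes had their highest value in it. It was at least 4-fold above the next clone for 22 members, against 0.528% of all genes. This held for 7 members under normexp background correction. All 22 were well above background in 2-C6, and for 12 of them the other clones were all not well above background. Of the 22, 15 reached the iHAC1-iPS range and 21 were at least 4-fold above F-C5, the line derived from 2-C6.
Besides the genes already named, the 22 included the enzymes Tha1 and Them4, the heparan sulfate sulfotransferase Hs3st3a1, the lectin-like Clec2g and the protease inhibitor Serpina1d, chosen here after their values were seen.
Counting only readings well above background, chosen after seeing the data, all 4 iHAC2-iPS clones were above the reference arrays in 20 members, none was in 33, and 2-C6 alone was in 45. Of all 15733 genes these patterns held for 3.15%, 57.2% and 4.62%. The 20 included Hbb-bh1, Myc, Slc38a5, Fcgr2b, Pllp, Ada and Pnpla3, and Pax6 was among the 33.

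**Figure D3:**
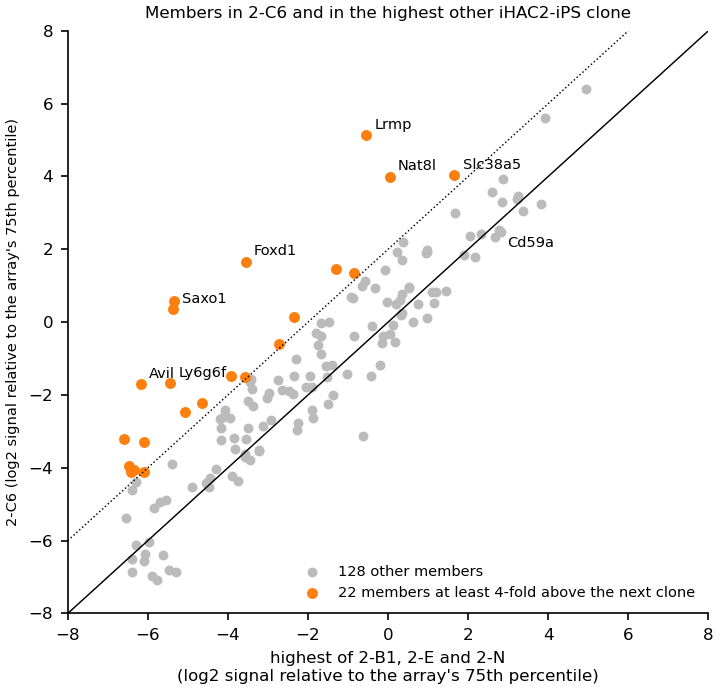
Each point is 1 of the 150 members, with its level in 2-C6 (vertical) against the highest of 2-B1, 2-E and 2-N (horizontal), both as log2 signal relative to the array's 75th percentile. The solid line marks equal levels and the dotted line a 4-fold excess in 2-C6, above which lie the 22 members in orange.

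Clone 2-N was at the other end. It held the lowest value of the 4 iHAC2-iPS clones for 74 members, where this was so for 29.1% of all genes. In 2-N 7 members were at least 4-fold below the next clone. Of all 15733 genes 124 were so in 2-N, against 3 in 2-B1, 23 in 2-C6 and 3 in 2-E, so this was not particular to the members. The 7 members were Cd59a and Shisa3, described above, and, named for this count, the carbonic anhydrase Car14, the stem cell surface protein Prom1, the tetraspanin Tspan7, Frmd4b and Unc93a. Tspan7 read 3.21 in 2-B1, 3.05 in 2-C6, 3.36 in 2-E and 0.42 in 2-N, and Car14 read 0.80, 0.11, 0.97 and -2.41. In 2-N alone among the iHAC2-iPS clones 1 member, Efhd1, lay within the iHAC1-iPS range, at -0.63 against -3.34 to -3.12 in the other clones. The pluripotency markers of 2-N were the highest of the 4 clones and its fibroblast markers the lowest, and the part of this in the result was not tested.
The iHAC1-iPS clones also differed among themselves. The range over the 4 clones had a median of 0.907 in the members, against 0.502 over all 15733 genes, and 1-A3 held the highest value for 69 members and 1-B the lowest for 66.

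**Figure D4:**
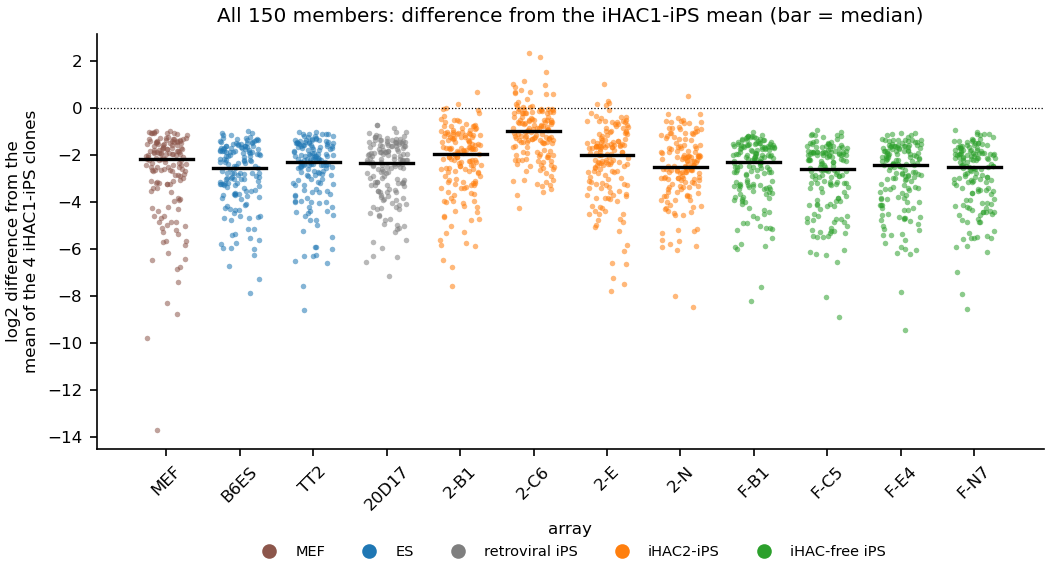
Difference of each of the 150 members from its mean over the 4 iHAC1-iPS clones (vertical axis, log2) on each of the other 12 arrays, with black bars at the medians. The median is -0.984 in 2-C6 and -2.49 in 2-N, and by the choice of the genes no MEF, ES or iHAC-free iPS point reaches 0.

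Loss of the vector was examined in the pairs of an iHAC2-iPS clone and the line derived from it. Because the iHAC-free iPS lines took part in choosing the genes, as arrays that had to be low, these differences are an upper limit on what an independent choice would give. Members were higher in 2-C6 than in F-C5 in 139 cases, with a median log2 difference of 1.597, against 0.0514 over all genes. For 2-B1 and F-B1 the median was 0.346 (110 members higher), for 2-E and F-E4 it was 0.492 (109 higher) and for 2-N and F-N7 it was 0.296 (92 higher). Of all genes, 53.7% were higher in 2-C6, 57.9% in 2-B1, 53.6% in 2-E and 54.2% in 2-N, so the 61.3% of members higher in 2-N lay near the share of all genes. Differences of at least 4-fold numbered 60 in 2-C6, 7 in 2-B1, 9 in 2-E and 14 in 2-N, while 1.90%, 0.540%, 0.706% and 0.381% of all genes were as much higher in these clones. At least 4-fold lower were 0 members in 2-C6, 4 in 2-B1, 2 in 2-E and 5 in 2-N. Of all 15733 genes, 277, 124, 188 and 211 were as much lower in these clones, in the same order.

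**Figure D5:**
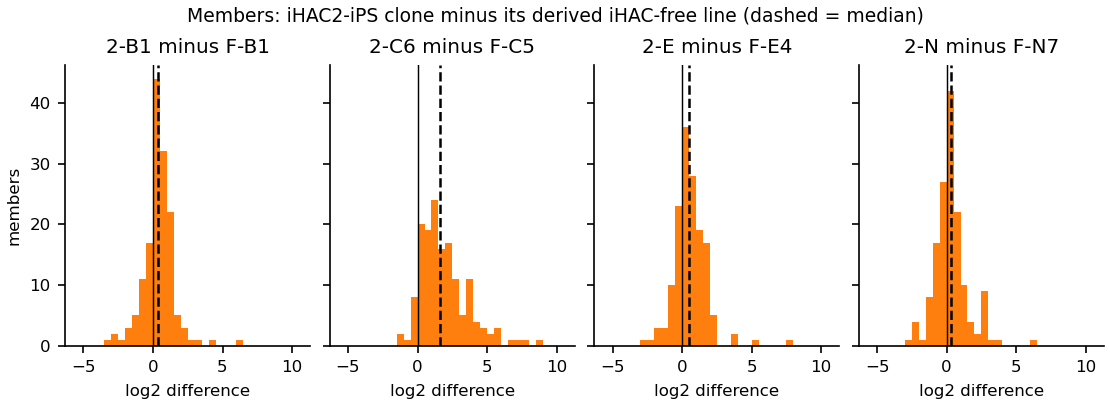
Histograms of the log2 difference between each iHAC2-iPS clone and the iHAC-free iPS line derived from it, over the 150 members, with the number of members on the vertical axis. The dashed median lies at 1.597 for 2-C6 and between 0.296 and 0.492 for the other clones.

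Over all clones, limma with Benjamini-Hochberg adjustment called 8 of the 150 members higher in iHAC2-iPS than in iHAC-free iPS cells, with an adjusted p under 0.05 and at least a 2-fold difference. In the same direction 0.216% of the 31415 tested probes were called. Both groups had 4 arrays, 125 members had a higher mean in iHAC2-iPS cells, and none was called lower, where 1 was lower at an unadjusted p under 0.05. The iHAC-free iPS arrays helped to choose the members, so neither the share nor the p-values below are independent of the choice.
The 8 were Hbb-bh1, Myc, Pou5f1, Cd59a, Pnpla3, Ada, A730063M14Rik and NAP049544-1. On the first probe of Hbb-bh1 the excess was at least 48.6-fold (adjusted p = 7.3e-05 by limma). Its second probe was well above background on 0 of the 8 arrays of cells that carried an iHAC vector. Myc was higher on its member probe by 4.16 ± 0.394 on the log2 scale (SE, adjusted p = 0.00134 by limma). The Myc probe farthest downstream ran the other way. It was at 0.31 ± 0.520 (SD, n = 4) in iHAC2-iPS cells and 1.07 ± 0.285 (SD, n = 4) in iHAC-free iPS cells. Pou5f1 was higher by 2.36 ± 0.402 (SE, adjusted p = 0.0221 by limma).
The lipase-like Pnpla3 read -3.03, -1.01, -2.61 and -2.31 in the iHAC2-iPS clones and -5.26 to -3.83 in the iHAC-free iPS lines. Adenosine deaminase, Ada, read 2.61, 3.92, 2.86 and 2.81 against 1.66 to 2.12. The transcript A730063M14Rik, whose probe lies 54447 bases from that of Avil on chromosome 10, read 0.75, 0.49, 0.74 and 0.33 against -0.53 to -0.36, with 3 of the 4 iHAC2-iPS clones in the iHAC1-iPS range of 0.45 to 0.75. In each of these genes the groups did not overlap, as in 40 of the 150 members and 8.07% of all 15733 genes.
Foxd1, Avil, Saxo1, Lrmp and Nat8l, high in 2-C6 alone, were not called in this comparison, with adjusted p between 0.327 and 0.882 by limma and spreads of 2.31 to 3.24 (SD, n = 4) among the iHAC2-iPS clones. With the line of origin as a replicate block, which pairs each clone with its derived line, 6 members were called. Without 2-N the count was 19, and without 2-E it was 2. Leaving out 2-B1 gave 5, and leaving out F-B1, F-C5, F-E4 or F-N7 gave 3, 3, 2 and 3. With only these groups in the fit 4 were called. Within slides 3 and 4 the counts were 2 and 4.

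Against ES cells (2 arrays), limma called 18 of the 150 members higher in iHAC2-iPS cells and none lower, where 3 were lower at an unadjusted p under 0.05. Of all tested probes 3.45% were called higher. The ES arrays also took part in the choice, so these p-values too are not independent of it, and group cannot be told apart from scan session. The 18 included Hbb-bh1, Myc, Cd59a, Slc38a5, Pnpla3, Pitpnm1, a phosphatidylinositol transfer protein, and Syne2, a protein of the nuclear envelope. Slc38a5 was higher by 3.64 on the log2 scale and Syne2 by 1.48, with adjusted p of 0.0398 and 0.0227 by limma. Bdh1, a mitochondrial enzyme of ketone metabolism, was 0.855 higher and did not reach a 2-fold difference. The count was 30 without 2-N, 6 without B6ES, 3 without TT2 and 0 with only these groups in the fit. Without 2-C6, 17 members were called higher and 5 lower.

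Other probes of the same gene were available for 66 members, 97 probes in all, and 64 of these also had every iHAC1-iPS clone above all reference arrays, against 6.17% of the 11075 other probes of all genes well above background in iHAC1-iPS clones. In 38 of the 66 genes all other probes did so, and in 49 at least 1 did. These probes read the same samples, so this is a check of the probes and not of the samples.
Members lay on 20 chromosomes. Some had probes close to each other, besides Ly6g6f and Ly6g6d also Clec2g and AK036971, at 7649 bases, and Ikzf1 and the dopa decarboxylase gene Ddc, at 57001 bases, and how often other genes do so was not counted. Chromosome 6 held 8.67% of the members and 5.08% of all genes well above background in iHAC1-iPS clones, chromosome 17 held 8.67% and 4.92%, and the X chromosome 6.67% and 3.46%.
The other written lists were each taken on their genes well above background in all iHAC1-iPS clones. Members were 1 of 8 red cell genes (Hbb-bh1, on its first probe only) and 1 of 31 neuronal genes (Avil). So were 1 of 25 epithelial genes (Pkp1) and 1 of 26 growth genes (Myc). No member came from 15 trophoblast, 19 endoderm, 15 mesoderm and muscle, 10 germline or 24 immune genes. As members were 150 of all 15733 such genes, lists this short would hold few or none, and these counts say little. The members Fcgr2b and Lrmp, described above, were not in the written immune list.

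Promoters ran from 250 bases before to 50 bases after a RefSeq start in GRCm38.p6, and numbered 155 for the members that had any. Some members had several promoters, each counted separately, so the shares below are of promoters and not of genes. The number of genes behind each share was not counted, and promoters of the same gene are not independent. The 7 short motifs were searched on both strands. The octamer ATGCAAAT, the motif of Oct factors, was in 7 of the 155 (4.52%), against 1.74% of all 32851 promoters and 1.46% of those of genes well above background in iHAC1-iPS clones. CACCC, the core of Klf factor motifs, was in 74.2%, against 57.5% and 63.5%, and AACAAT, a Sox-like motif, in 9.03%, against 10.72% and 6.00%. The E-box CACGTG, bound by Myc, was in 3.87%, against 7.15% and 9.63%. GGGCGG was in 51.6% (35.7% and 61.5%), CCAAT in 45.2% (37.4% and 37.8%) and TATAAA in 8.39% (13.6% and 8.04%). Promoters were found for 12 of the 22 members that stood at least 4-fold apart in 2-C6, of which 11 held CACCC, 2 held CACGTG and 0 held ATGCAAAT, too few to set against the shares above. A match is a run of letters and not evidence of binding.
The 250 bases before the start of Avil, Foxd1 and Saxo1 are shown because these genes stood apart in 2-C6, with matches to the 7 motifs on either strand in capitals. No match was found before Saxo1.
Avil, chr10:127000459-127000708, plus strand, GRCm38.p6: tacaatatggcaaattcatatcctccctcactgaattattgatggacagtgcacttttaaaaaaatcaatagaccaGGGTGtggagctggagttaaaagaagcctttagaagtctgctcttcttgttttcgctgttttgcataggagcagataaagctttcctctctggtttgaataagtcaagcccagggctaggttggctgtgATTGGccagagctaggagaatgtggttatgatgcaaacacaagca
Foxd1, chr13:98353995-98354244, plus strand, GRCm38.p6: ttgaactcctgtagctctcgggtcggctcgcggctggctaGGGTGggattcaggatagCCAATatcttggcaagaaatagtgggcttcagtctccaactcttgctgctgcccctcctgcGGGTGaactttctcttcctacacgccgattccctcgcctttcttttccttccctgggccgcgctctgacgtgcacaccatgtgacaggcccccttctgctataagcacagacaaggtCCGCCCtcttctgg
Saxo1, chr4:86558304-86558553, minus strand, GRCm38.p6: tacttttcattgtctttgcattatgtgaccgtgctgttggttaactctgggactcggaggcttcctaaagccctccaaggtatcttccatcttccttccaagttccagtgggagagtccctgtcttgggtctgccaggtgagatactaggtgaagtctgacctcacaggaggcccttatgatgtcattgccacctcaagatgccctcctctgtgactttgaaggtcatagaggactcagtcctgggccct
Avil held 2 matches, 1 to CACCC and 1 to the CCAAT motif. Foxd1 held 4, of which 2 were to CACCC, and the others to the CCAAT motif and to GGGCGG. The GC content was 42.0%, 57.2% and 50.8% for Avil, Foxd1 and Saxo1.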

How the data were processed

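RNA of 16 samples was hybridized to 1-colour arrays, 1 per sample. The authors extracted spots with Agilent Feature Extraction 10.7.1.1 (slides 1 and 2) and 10.7.3.1 (slides 3 and 4). In the deposited scanner files the intensity of a spot is background-subtracted and not scaled between arrays. The deposited value table holds log2 values that equal those used here up to the centre of each probe and a shift of -0.0294 to 0.0578 per array, with column medians between -0.325 and 0.279, so it is no independent check.

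Control and outlier spots were left out, log2 of the processed signal was taken minus each array's 75th percentile, and spots of a probe were averaged. Each gene was read by its probe with the highest mean over all arrays. Names come from the files and, for 118 members, from RefSeq accessions. Probe positions are mm9. Probes well above background on at least 1 array, 31415 in all, were fitted with limma 3.58.1 (R 4.3.3) in 6 groups. The number of arrays limits the precision. The fit recovered the changes set in simulated data. These were equal in all iHAC2-iPS arrays, so a change in a single clone was not covered. Replicates are separate clones or lines.

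The members and lists were chosen with earlier results of these data known. Named genes were, by rule, the 12 with the largest score, the 12 with the largest excess in 2-C6, the 5 highest in iHAC2-iPS cells, those called against iHAC-free iPS cells, those in a written list, and the first and last of the list. Pairing follows the line of origin. Correlations of deviations from the group means were -0.0992, -0.402, -0.0143 and 0.173 for the pairs B, C, E and N. Alternatives were quantile normalization, normexp background correction with an offset of 50, the deposited table, other filters, only the compared groups, blocks of slide or line, and leaving out each array. Within-slide fits and keeping outlier spots were added after seeing the data. So were the counts of members above all reference arrays, or lowest in 2-N, under normexp, quantile normalization and the deposited table. qRT-PCR data were not analysed here.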

Additional observations from a re-analysis of the deposited data

Results flagged for a closer look

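Each named gene was examined for a clone far from the others of its group in iHAC1-iPS, iHAC2-iPS and iHAC-free iPS cells, 96 groups of 4 in all. A clone was picked out when its gap to the nearest other clone took up more of the group's whole range than Dixon's 95% critical value allows and 8 were found. Chance gives about 1 in 20 groups, but many of these genes were named for their excess in 2-C6, so the number cannot be read against chance. Of these, 5 were high values of 2-C6 in the iHAC2-iPS group, at -1.70 for Avil, 4.05 for Slc38a5, 0.36 for Saxo1, -3.30 for Slc5a9 and 1.66 for Foxd1, where the nearest other clones were at -6.18, 1.65, -5.36, -6.09 and -3.56. For Avil, Saxo1 and Slc5a9 the other iHAC2-iPS clones were not well above background, so the sizes of those gaps rest on dim readings. The iHAC2-iPS clone 2-N was picked out for Cd59a, at -1.53 against 2.44 in the nearest clone. Among iHAC-free iPS lines, F-B1 was picked out for Pkp1, at -4.57 against -5.29, and F-E4 for NAP049544-1, at -5.48 and not well above background, against -4.79.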

How the results depend on the processing

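Of the 150 members, between 110 (without 1-B) and 146 stayed in the list when an array other than MEF was left out, and 69 stayed without MEF. Normexp background correction kept 114, quantile normalization kept 137, and 143 were kept with the deposited table. Normexp lowered the members at least 4-fold above the next clone in 2-C6 from 22 to 7 and raised those of 2-B1 above all reference arrays from 65 to 100. The 8 members called against iHAC-free iPS cells became 13 with normexp, 4 with only these groups in the fit, 5 with slide as a block, 2 within slide 3 and 4 within slide 4, and ranged from 2 to 19 when 1 array was left out. The replicate block by line of origin called 6, of which 5 were among the 8. Against ES cells the count of 18 became 0 with only these groups in the fit and ranged from 3 to 30 when 1 array was left out. The causes were not tested.

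Over 1038 refits of the named genes, 921 kept direction and call, 85 lost a call, 13 gained one and 19 changed sign, none of them called in the full fit. Against iHAC-free iPS cells the changed log2 differences were, within slide 3, -0.80 for Avil, -0.96 for Shisa3, -1.08 for Nat8l, -0.11 for Lrmp and -0.021 for Foxd1. Without 2-C6 they were -0.76 for Avil, -0.15 for Shisa3 and -0.84 for Nat8l. En2 was 0.032 without 2-E. Pax6 was 0.31 with normexp, 0.30 within slide 4, 0.069 without 2-E and 0.0094 without F-B1, and ENSMUST00000111083 was 0.24 with normexp. Against ES cells Shisa3 was 0.25 with normexp, 0.018 without TT2 and 0.99 without 2-N, while without 2-C6 Lrmp was -0.40 and Foxd1 -0.066. Over all fits without 1 array, the largest values of these genes against iHAC-free iPS cells were 0.85 for Avil, 2.52 for Shisa3 and 0.92 for Nat8l, and the lowest were -1.07 for En2 and -0.72 for Pax6. Against ES cells the lowest was -1.68 for Shisa3, and the largest were 1.96 for Lrmp and 1.81 for Foxd1.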
